A study of Mus musculus with 6 samples.

Results

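Erythroid cells of the spleen of a mouse made anemic with phenylhydrazine (PHZ) were compared with erythroid cells of the embryonic day 14.5 (E14.5) fetal liver, in tissue sections measured in situ. A cell was selected on its own counts, as erythroid if it held at least 8 transcripts of Slc4a1 and Hemgn together and no transcript of C1qa, C1qb or C1qc. This gate chose 13629 of 94582 segmented cells in the PHZ spleen and 61490 of 117329 in the E14.5 fetal liver, 75119 cells of the 521938 in the 6 sections of the series. Slc4a1 encodes band 3, the anion exchanger of the red cell membrane, and Hemgn encodes hemogen, a nuclear protein of erythroid cells. The C1q genes mark the macrophages around which erythroblasts gather. The values that chose the cells are description only, and the comparison rests on the other 472 genes of the panel and on cell and nucleus area.

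All mice were C57BL/6 wild type. The fetal liver came from an untreated embryo at E14.5. The PHZ spleen came from an adult mouse given repeated intraperitoneal injections of PHZ at 40 mg/kg, which damages circulating red cells. Sections of an untreated adult spleen and of postnatal day 8 (P8) bone marrow were imaged in the same run with the same panel of 477 genes. They serve as reference, with 41 and 11334 cells in the gate. Each condition is 1 section, so there is no replicate and no test. Intervals are exact, at 95% confidence, and cover counting error only.

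The fetal liver is the main site of red cell production in the mouse before birth, and it makes definitive red cells with adult globins. In the adult mouse the bone marrow takes over. After hemolysis, progenitors expand in the spleen in a program called stress erythropoiesis. In each organ erythroblasts divide, fill with heme and hemoglobin, shrink and finally expel the nucleus, often in islands around a macrophage.

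The gate took 14.4% of all cells in the PHZ spleen (exact binomial interval 14.2% to 14.6%), 52.4% in the fetal liver (52.1% to 52.7%), 21.6% in the marrow and 0.0378% in the untreated spleen. The C1q condition weighed unequally. Of the cells with at least 8 transcripts of Slc4a1 and Hemgn, 62.5% in the PHZ spleen and 33.2% in the E14.5 fetal liver held a C1q transcript and were left out. In the P8 bone marrow this share was 46.3%, and in the untreated spleen 97.2%, 1398 of 1439 cells. The 41 reference cells of the untreated spleen are the small remainder. Without the C1q condition the gate took 38.4% of cells in the PHZ spleen, 78.5% in the fetal liver, 40.1% in the marrow and 1.33% in the untreated spleen. Selected cells had a median of 15 Slc4a1 and Hemgn transcripts in the PHZ spleen and 20 in the fetal liver. Slc4a1 averaged 10.5 and 13.4 transcripts per selected cell, and Hemgn 6.16 and 9.15. Just inside the threshold, at 8 transcripts, were 1067 and 2667 cells, with a median total of 80 and 131 transcripts and a median nucleus area of 19.1 and 21.9 µm². Just outside it, at 7, were 1147 and 2722 cells, with 77 and 129 transcripts and 18.9 and 21.7 µm².

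Depth differed between the sections. A selected cell held a median of 127 transcripts in the PHZ spleen and 175 in the fetal liver, and 124 in the P8 bone marrow. The levels below are therefore CPM, the counts of a gene summed over the selected cells, divided by the sum over the 472 other genes and multiplied by 1000000. These sums were 1647908 in the PHZ spleen and 10046609 in the fetal liver. The most abundant negative control probe, which matches no mouse transcript, gave 21 and 45 counts in the same cells. The PHZ spleen and the fetal liver lay on different slides, and organ, age, treatment, animal and slide cannot be told apart. The P8 bone marrow shared the slide of the fetal liver, and its values stand beside the results for that reason. Pairs of these 4 sections shared between 1 and 6 cell identifiers.

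The label held against genes that the gate did not use. Hbb-bt, an adult beta-globin gene, reached 77694 CPM in the PHZ spleen and 81942 in the E14.5 fetal liver. Per cell, selected cells held 1.97 times as many Hbb-bt transcripts as all other cells in the PHZ spleen and 1.28 times as many in the fetal liver. For Klf1, the master transcription factor of terminal erythroid differentiation, this ratio was 2.23 and 1.48. For Rhd, the Rhesus blood group protein, it was 2.81 and 1.60. The other cells include those that passed the Slc4a1 and Hemgn threshold but held a C1q transcript. These were 22671 of 80953 other cells in the PHZ spleen and 30616 of 55839 in the fetal liver. Ratios of inside over outside are thus not alike between the sections. Cells left out by the gate also held erythroid transcripts. In the fetal liver, 86.9% of the C1q-negative cells with at most 2 gate transcripts had an Hbb-bt transcript. In the PHZ spleen that share was 37.9%. The depth of these cells differed, with a median of 117 transcripts in the fetal liver and 52 in the PHZ spleen. In CPM their Hbb-bt levels were closer, at 24778 and 17746.

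Of 299 genes with at least 500 counts over both sections, 86 were at least 2-fold higher in erythroid cells of the PHZ spleen, 28.8% of those compared. In the E14.5 fetal liver 100 genes were at least 2-fold higher, 33.4%, and 113 lay between. The median log2 ratio of PHZ spleen over fetal liver was −0.02 over all 299 genes. Most of the genes past 2-fold were not concentrated in erythroid cells. Of the 86 genes higher in the PHZ spleen, 78 had more counts per cell outside the gate than inside it in that section. Only 42 of the 299 genes had at least 1.2 times as many counts per cell inside the gate as outside it in either section, a limit chosen after seeing the data. It was not corrected for depth, and the cells outside include those left out for a C1q transcript, a larger part in the fetal liver. Selected cells held a mean of 138 transcripts against 118 in other cells of the PHZ spleen, and 186 against 170 in the fetal liver. Values just above the limit are therefore little beyond the difference in depth. Of these 42, 7 were at least 2-fold higher in the PHZ spleen, 1 was at least 2-fold higher in the fetal liver and 34 were neither. A gene that is high in 1 section can meet this limit through that section alone, so the counts are a description and support no direction. The limit was met in both sections by 28 genes and in the PHZ spleen only by 14, and 3 of the 7 genes (Rsad2, Dnase2a and Pygm) were among the 14. Of the 28 genes, 4 were at least 2-fold higher in the PHZ spleen, 1 in the fetal liver and 23 in neither.

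The 7 genes were Rsad2, Ctse, Isg20, Aqp1, Dnase2a, Pygm and Plek2, and the 1 gene was Aqp3. The plot of section difference against excess in erythroid cells shows them as a small group at the right, above and below a row of erythroid genes that lie near 0.

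**Figure D1:**
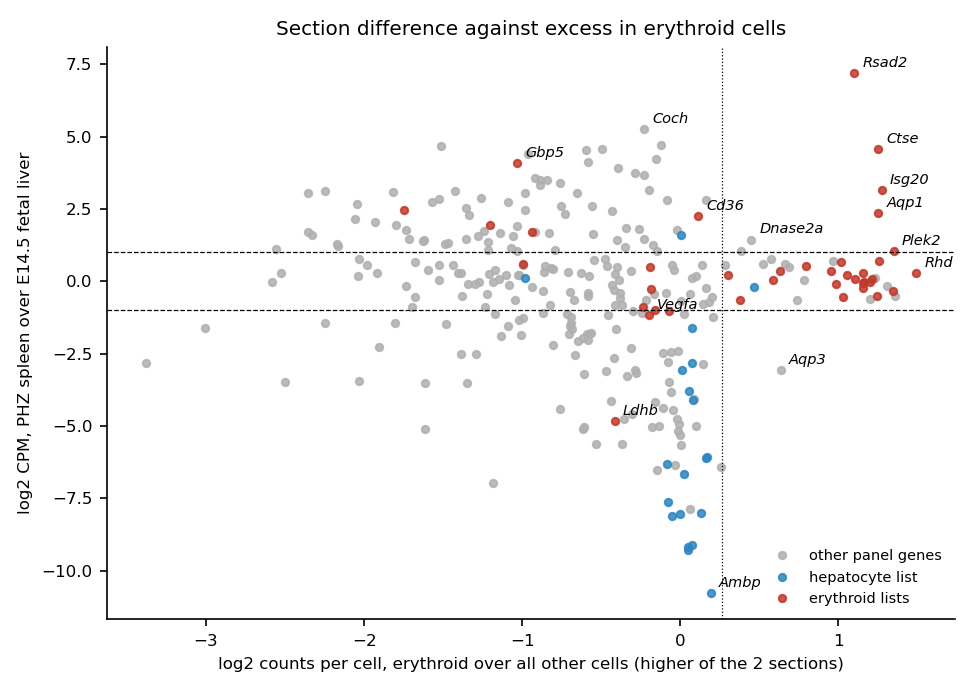
Each point is 1 of 299 genes, with log2 CPM of PHZ spleen over E14.5 fetal liver on the y axis and log2 counts per cell of erythroid over all other cells on the x axis. Dashed lines mark 2-fold and the dotted line 1.2-fold. Rsad2, Ctse, Isg20 and Aqp1 stand at the upper right at log2 7.20, 4.57, 3.16 and 2.35, and the hepatocyte list (blue) falls to −10.77 for Ambp near 0 on the x axis.

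Of 40 genes in 8 lists drawn up for erythroid cells, 39 had at least 500 counts. Of these, 10 (25.6%) were at least 2-fold higher in the PHZ spleen, close to the 28.8% of all 299 genes. In the E14.5 fetal liver 3 (7.69%) were higher, beside 33.4% of all genes, and 26 were in neither, beside 113 of 299. Not all listed genes were concentrated in the gate. The 1.2-fold limit was met by 1 of 7 genes of the interferon and innate list and 1 of 3 of cytoskeleton and enucleation. Gbp2, Gbp5, Epsti1 and Psmb8, which are among the 10, were scarcer inside the gate than outside it. Without the interferon and innate list, 5 of 32 genes (15.6%) were higher in the PHZ spleen and 3 of 32 (9.38%) in the fetal liver, beside the same 28.8% and 33.4%, with a median log2 ratio of 0.06.

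**Figure D2:**
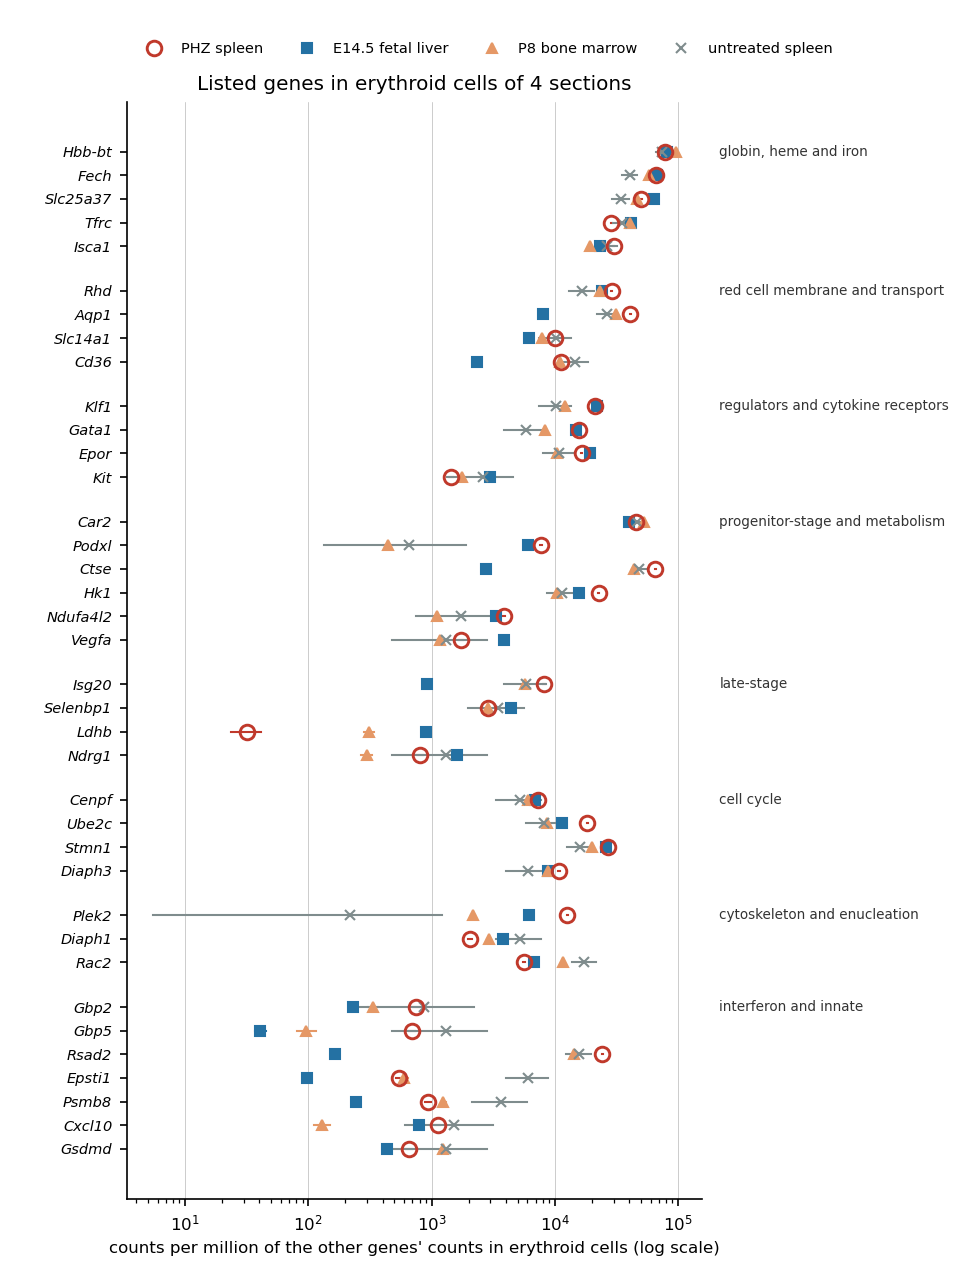
Level in CPM (log axis) of 37 genes of the 8 lists in the erythroid cells of 4 sections, with exact Poisson intervals as horizontal lines, many narrower than the symbol. Open circles (PHZ spleen) and squares (E14.5 fetal liver) coincide for genes such as Fech and Klf1, and separate for Ctse, at 65262 against 2748 CPM, and Rsad2, at 24308 against 165 CPM.

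The genes of heme synthesis were near equal over all selected cells. All 6 genes of the globin, heme and iron list lay within 2-fold, as did 113 of all 299 genes, with a median log2 ratio of −0.05. Fech, which inserts iron into the porphyrin ring as the last step of heme synthesis, was at 66529 CPM in the PHZ spleen and 68001 in the E14.5 fetal liver, a ratio of 0.978 (0.972 to 0.985). The ratio of Hbb-bt was 0.948 (0.943 to 0.954). Both ratios fell with the gate count, so the near equality is an average over opposite differences. At 8 to 14, 15 to 24 and 25 or more gate transcripts, Fech had ratios of 1.28, 1.00 and 0.897. In the same classes Hbb-bt had ratios of 1.17, 0.942 and 0.894. Over all selected cells the iron importers had lower levels in the PHZ spleen. Tfrc, the transferrin receptor, was at 28689 CPM against 41504, and Slc25a37, mitoferrin 1 of the inner mitochondrial membrane, at 50437 against 63609. In cells with 8 to 14 gate transcripts the direction of Slc25a37 turned, to 44085 against 38635 CPM, while Tfrc stayed lower at 24781 against 31848. Isca1, which builds iron-sulfur clusters, was at 30005 against 23226 CPM. As counts per cell, all 6 genes were lower in the PHZ spleen, where Hbb-bt averaged 9.39 ± 5.07 transcripts (SD over cells) against 13.4 ± 6.96.

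Over all selected cells the regulators were near equal between the PHZ spleen and the fetal liver and lower in the marrow. Klf1 was at 20985 CPM in the PHZ spleen, 21822 in the fetal liver and 11996 in the P8 bone marrow. Gata1, the transcription factor that specifies the lineage, was at 15812, 14748 and 8390 CPM. Its ratio of PHZ spleen over fetal liver was 1.28, 1.14 and 0.998 at 8 to 14, 15 to 24 and 25 or more gate transcripts. The direction of Gata1 over all selected cells turned with a total that left out the marker lists of other cell types. Epor, the erythropoietin receptor, was at 16552, 19185 and 10402 CPM. For each of these genes the difference between the PHZ spleen and the fetal liver was smaller than the distance of either from the marrow. Kit, the stem cell factor receptor of early progenitors, was at 1447 CPM in the PHZ spleen and 2965 in the fetal liver, 2.05-fold lower in the PHZ spleen (1.97 to 2.14), a call that was lost on 6 of 14 other settings. Kit was not concentrated in the gate, with 0.722 and 0.952 times as many counts per cell inside as outside. In the 2136 and 670 cells with at most 2 counts of other cell types' marker lists, the log2 ratio of Kit turned from −1.04 to 0.53, on 113 counts.

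Membrane genes differed by gene. Rhd was at 29079 CPM in the PHZ spleen and 23959 in the E14.5 fetal liver, and its log2 ratio turned from 0.28 to −0.36 in cells with at most 2 counts of other cell types' lists. Slc14a1, the urea transporter that carries the Kidd blood group, was at 9984 and 6203 CPM, a ratio of 1.61 (1.58 to 1.64). Aqp1, the water channel of the red cell membrane, was at 40852 CPM in the PHZ spleen and 8018 in the fetal liver, a ratio of 5.10 (5.04 to 5.15). The P8 bone marrow had 31586 CPM of Aqp1 and the 41 cells of the untreated spleen 26652, so the fetal liver stood below the other sections. An Aqp1 transcript was seen in 93.0% of the selected PHZ cells and 50.7% of the selected fetal cells. After each cell was thinned to 50 counts, these shares were 83.0% and 26.3%. Cd36, a receptor for fatty acids on erythroid precursors, macrophages and endothelium, was at 11228 CPM against 2331, with 11055 CPM in the P8 bone marrow. Cd36 was about as frequent outside the gate as inside it, with 1.08 and 0.886 times as many counts per cell inside.

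Among the listed genes, Ctse had the largest difference toward the PHZ spleen after Rsad2. It encodes cathepsin E, an aspartic protease of endosomes that is also found in red cell precursors. Ctse was at 65262 CPM in erythroid cells of the PHZ spleen, 48321 in the untreated spleen, 43787 in the P8 bone marrow and 2748 in the E14.5 fetal liver. The ratio of PHZ spleen over fetal liver was 23.8 (23.4 to 24.1). Per cell this was 7.89 ± 4.71 transcripts against 0.449 ± 0.781 (SD over cells). At 50 counts per cell, 94.8% of PHZ cells and 12.1% of fetal cells had a Ctse transcript, and among C1q-negative cells with at most 2 gate transcripts 25.8% and 3.04% did. Counts per cell rose with the gate count in both sections, from 5.34 transcripts at 8 to 14 to 13.8 at 25 or more in the PHZ spleen, and from 0.283 to 0.619 in the fetal liver. Depth rose as well, in the PHZ spleen from a median of 97 to 210 transcripts. In CPM the rise was smaller, from 56549 to 74120 in the PHZ spleen and from 2016 to 3168 in the fetal liver.

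The other genes of the progenitor-stage and metabolism list were closer over all selected cells. Car2, carbonic anhydrase 2, was at 45840 CPM in the PHZ spleen and 39666 in the E14.5 fetal liver. Its log2 ratio of 0.21 turned to −0.47 in cells with at most 2 counts of other cell types' lists, to −0.23 as counts per cell and to −0.02 with a total without those lists. Podxl, a sialomucin of early erythroid cells, was at 7714 and 6056 CPM, against 444 in the P8 bone marrow, and its log2 ratio went from 0.35 to 1.25 in cells with at most 2 such counts. Hk1, the hexokinase of red cells, was at 22635 and 15749 CPM against 10485, and Ndufa4l2, a mitochondrial protein raised in hypoxia, at 3881 and 3345 CPM against 1117. Podxl, Hk1 and Ndufa4l2 were thus each higher in both the PHZ spleen and the fetal liver than in the marrow. Between the PHZ spleen and the fetal liver, the direction of Ndufa4l2 turned as counts per cell and with a total without the other cell types' lists. Vegfa, the endothelial growth factor, was at 1726 and 3853 CPM, 2.23-fold lower in the PHZ spleen (2.15 to 2.32), a call that was lost on 3 of 14 other settings. It was not concentrated in the gate, and its log2 ratio turned from −1.16 to 0.15 in cells with at most 2 counts of other cell types' lists.

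Rsad2 differed most of all 299 genes toward the PHZ spleen. It encodes viperin, an antiviral enzyme that interferon induces in many cell types. Erythroid cells held 40057 Rsad2 transcripts, 24308 CPM (24070 to 24547), in the PHZ spleen and 1659 transcripts, 165 CPM (157 to 173), in the E14.5 fetal liver. The ratio was 147 (140 to 155). The P8 bone marrow, on the slide of the fetal liver, had 14422 CPM, and the untreated spleen 15601 CPM from 72 transcripts. Rsad2 was therefore high in erythroid cells of all 3 postnatal sections and low in the fetal liver, with the highest level in the PHZ spleen. Per cell the mean was 2.94 ± 2.85 transcripts against 0.0270 ± 0.211 (SD over cells). The fetal value was still above the most abundant negative control probe, which had 0.000732 counts per cell.

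Per cell, Rsad2 was more frequent in cells with more gate transcripts in the PHZ spleen. The mean went from 0.343 transcripts per C1q-negative cell with 0 to 2 gate transcripts to 1.19, 2.29, 3.31 and 4.11 in the next 4 classes of gate count. In the P8 bone marrow it went from 0.0896 to 1.87 over the same classes. In the E14.5 fetal liver it stayed between 0.0175 and 0.0289. The depth of the cells grew alongside, from a median of 52 transcripts in the first class of the PHZ spleen to 210 in the last. On the CPM scale Rsad2 went from 5624 and 15054 below the gate to 24229, 25531 and 22126 inside it, so inside the gate it was about level. In the P8 bone marrow these levels were 931 and 8517 CPM below the gate and 15897, 14886 and 11081 inside it, the last being the lowest of the 3. At 50 counts per cell, 62.7% of PHZ erythroid cells (61.9% to 63.6%) and 0.810% of fetal erythroid cells (0.740% to 0.885%) had an Rsad2 transcript. Among C1q-negative cells with 0 to 2 gate transcripts these shares were 17.8% and 0.492%. Median depths before thinning were 112 and 152 counts of other genes in the erythroid cells, and 51 and 116 in the cells with 0 to 2. The thinning left out 705 and 882 erythroid cells, and 6956 and 514 of the others.

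**Figure D3:**
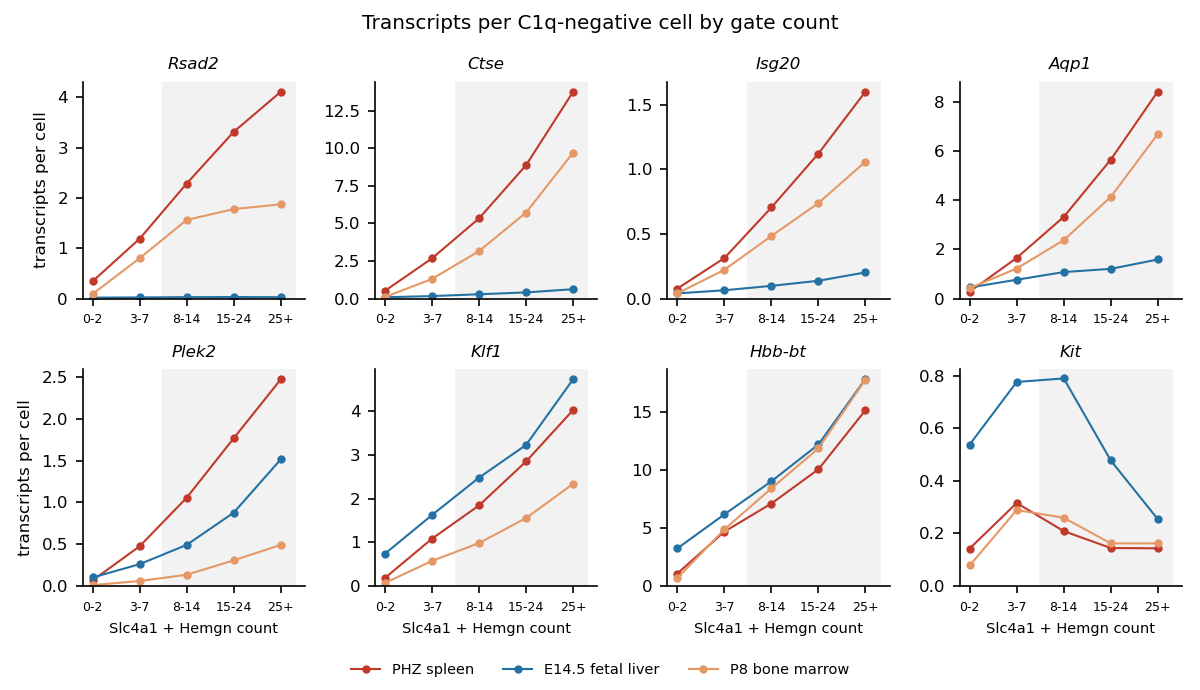
Mean transcripts per C1q-negative cell (y axis) of 8 genes in 5 classes of the summed Slc4a1 and Hemgn count (x axis). The shaded classes lie inside the gate. In these counts per cell, which grow with the depth of the cells, Rsad2, Ctse, Isg20 and Aqp1 climb in the PHZ spleen and the P8 bone marrow and stay low in the E14.5 fetal liver, although Rsad2 in CPM does not climb inside the gate. Hbb-bt climbs in all 3, and Kit falls inside the gate in the fetal liver from 0.789 to 0.254.

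The other 6 genes of the interferon and innate list were not concentrated in the gate. All 7 genes of the interferon and innate list were compared, and 5 were at least 2-fold higher in the PHZ spleen, beside 28.8% of all 299 genes, with a median log2 ratio of 1.95. Gbp5, a guanylate-binding protein, was at 693 CPM against 40.9, and Epsti1 at 546 against 97.4 CPM. Psmb8, an immunoproteasome subunit, was at 938 against 243 CPM, and Gbp2 at 749 against 230.0 CPM. Gbp5, Epsti1, Psmb8 and Gbp2 stayed at least 2-fold higher in the PHZ spleen on all 14 other settings. In cells with at most 2 counts of other cell types' lists the log2 ratios of Gbp5, Epsti1 and Gbp2 were 2.97, 2.90 and 2.50. That selection left 670 fetal cells, so at these low fetal levels the ratios rest on few fetal transcripts. Cxcl10, an interferon-induced chemokine, was at 1123 against 786 CPM, and Gsdmd, the pore protein of pyroptosis, at 659 against 435. In cells with at most 2 counts of other cell types' lists both passed 2-fold, with log2 ratios of 2.59 for Cxcl10, on 147 counts, and 1.84 for Gsdmd, on 45 counts. Each of these 6 genes had fewer counts per cell inside the gate than outside it in both sections, between 0.140 and 0.497 times in the PHZ spleen. For Rsad2 that value was 2.14 in the PHZ spleen, 2.79 in the P8 bone marrow and 0.664 in the fetal liver.

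Isg20, an exonuclease that interferon induces and that late erythroblasts express, behaved like Ctse. It was at 8211 CPM in the PHZ spleen, 5850 in the untreated spleen, 5705 in the P8 bone marrow and 918 in the E14.5 fetal liver. The ratio of PHZ spleen over fetal liver was 8.94 (8.71 to 9.18), and inside the gate it was 2.42 and 1.37 times as frequent per cell as outside. The other late-stage genes had lower levels over all selected cells of the PHZ spleen. Selenbp1, a selenium-binding protein, was at 2846 against 4421 CPM, and Ndrg1 at 806 against 1602 CPM. In cells with at most 2 counts of other cell types' lists the log2 ratios of both turned, for Selenbp1 from −0.64 to 0.42, on 448 counts, and for Ndrg1 from −0.99 to 1.36, on 77 counts. Ldhb, a lactate dehydrogenase subunit, was at 31.6 against 896 CPM, and was scarcer inside the gate than outside in both sections. Asb9 had 8 and 91 counts, too few for comparison.

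Genes of the cell cycle were level or somewhat higher in the PHZ spleen in CPM, with a median log2 ratio of 0.18. None of the 4 was past 2-fold, beside 28.8% and 33.4% of all genes past it in each direction. Ube2c, a ubiquitin-conjugating enzyme of mitosis, was at 18405 CPM against 11386, a ratio of 1.62 (1.60 to 1.64), and at 8581 CPM in the P8 bone marrow. Cenpf, a kinetochore protein, was at 7281 and 6909 CPM, Stmn1, which destabilizes microtubules, at 27160 and 26217, and Diaph3, a formin of the contractile ring, at 10763 and 8815. As counts per cell the log2 ratios of Cenpf, Stmn1 and Diaph3 turned to −0.36, −0.38 and −0.15, while that of Ube2c was 0.26. The direction of Cenpf turned on 5 of 14 other settings. With a total without the other cell types' lists, the directions of both Cenpf and Stmn1 turned, so the order in CPM depends on the total used.

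Plek2, an actin-organizing protein of late erythroblasts, was highest in the PHZ spleen. It was at 12663 CPM in the PHZ spleen, 6141 in the fetal liver, 2177 in the P8 bone marrow and 217 in the untreated spleen, where it had 1 transcript. The ratio of PHZ spleen over fetal liver was 2.06 (2.03 to 2.10), and over the P8 bone marrow 5.82. The difference from the fetal liver shrank with the gate count, with CPM ratios of 3.19, 2.30 and 1.72 at 8 to 14, 15 to 24 and 25 or more gate transcripts. The 2-fold call was lost on 7 of 14 other settings, among them counts per cell, with a log2 ratio of 0.61. Of the other genes of cytoskeleton and enucleation, Diaph1 was at 2055 and 3824 CPM and Rac2, a GTPase of enucleation that leukocytes also express, at 5650 and 6756, and neither was concentrated in the gate. The log2 ratio of Diaph1 turned from −0.90 to 0.08 in cells with at most 2 counts of other cell types' lists.

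The remaining genes past 2-fold among those concentrated in the gate were Dnase2a, Pygm and Aqp3. Dnase2a, the lysosomal nuclease that degrades DNA of expelled nuclei, was at 5731 CPM in the PHZ spleen and 2108 in the E14.5 fetal liver. It was 1.36 times as frequent inside the gate as outside in the PHZ spleen and 0.898 times in the fetal liver. The paper reports Dnase2a at higher levels in C1q-expressing macrophages than in other macrophages. The part of neighboring macrophages in these counts was not tested. Pygm, glycogen phosphorylase of muscle, was at 301 and 146 CPM, and its 2-fold call was lost on 5 of 14 other settings. Aqp3, a channel for water and glycerol, went the other way at 162 CPM against 1355, 8.36-fold lower in the PHZ spleen (7.41 to 9.47). Aqp3 was at 95.6 CPM in the P8 bone marrow, so the fetal liver stood above the marrow for Aqp3 and below it for Aqp1.

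Upstream sequences are shown for Rsad2, which had the largest difference toward the PHZ spleen, for Aqp1 and for Plek2. Hbb-bt is shown as a gene that was near even over all selected cells. Each is the 250 bases before the annotated start, 5′ to 3′ on the gene's strand, from RefSeq on GRCm38.p6. Positions are chr12:26456453-26456702 (minus strand) for Rsad2, chr6:55336049-55336298 (plus strand) for Aqp1, chr12:78906939-78907188 (minus strand) for Plek2 and chr7:103813924-103814173 (minus strand) for Hbb-bt. Capitals mark matches on either strand to 3 patterns. GAAANNGAAA occurs in interferon-response elements. AGATAA is a sequence that GATA factors bind. KLF proteins bind CCACCC.
Rsad2: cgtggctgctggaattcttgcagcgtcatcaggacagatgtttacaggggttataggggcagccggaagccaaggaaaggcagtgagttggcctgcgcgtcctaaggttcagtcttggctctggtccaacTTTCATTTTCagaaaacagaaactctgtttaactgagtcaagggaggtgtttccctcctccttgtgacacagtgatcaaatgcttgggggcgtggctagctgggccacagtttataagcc
Aqp1: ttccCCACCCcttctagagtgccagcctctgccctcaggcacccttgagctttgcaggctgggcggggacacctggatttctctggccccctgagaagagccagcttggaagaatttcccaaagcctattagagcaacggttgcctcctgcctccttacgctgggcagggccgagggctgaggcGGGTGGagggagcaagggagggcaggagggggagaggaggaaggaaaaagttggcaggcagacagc
Plek2: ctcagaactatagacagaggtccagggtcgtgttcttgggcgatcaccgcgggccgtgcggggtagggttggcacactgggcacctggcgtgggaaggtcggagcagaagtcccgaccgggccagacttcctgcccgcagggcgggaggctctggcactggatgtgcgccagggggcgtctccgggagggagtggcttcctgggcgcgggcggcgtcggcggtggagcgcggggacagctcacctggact
Hbb-bt: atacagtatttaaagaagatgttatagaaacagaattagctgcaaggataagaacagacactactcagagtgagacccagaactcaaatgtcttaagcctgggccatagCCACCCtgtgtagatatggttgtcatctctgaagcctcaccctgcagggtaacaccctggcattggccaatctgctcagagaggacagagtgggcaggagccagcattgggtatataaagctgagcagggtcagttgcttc
Rsad2 holds 1 match to the interferon-response pattern, which begins 120 bases before the start, and none of the others. Such a match occurs in 2.98% of 32536 distinct windows of this length in the table. Aqp1 holds 2 and Hbb-bt 1 match to CCACCC, which occurs in 28.1% of windows, and Plek2 holds no match to any of the 3 patterns. AGATAA occurs in 9.97% of windows. Among the 3 annotated starts of Isg20, none holds the interferon-response pattern, 1 holds CCACCC and 1 holds AGATAA. These matches are descriptions of letters, not of binding. The sequence of Ctse is not shown.

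Of the genes with the largest ratios toward the PHZ spleen, most were scarcer inside the gate than outside it. The 10 genes furthest toward the PHZ spleen were Rsad2, Coch, Serpina3n, Cxcl13, Ctse, Ly6a, Ccl5, Il1b, Cxcl2 and Il1r2. Apart from Rsad2 and Ctse, each was scarcer inside the gate than outside it in the PHZ spleen, between 0.170 times for Cxcl13, a chemokine of follicular stroma, and 0.710 times for Coch. Ly6a, the stem cell antigen Sca-1, was at 3818 CPM against 162. Ccl5, a chemokine of cytotoxic lymphocytes, was at 412 against 17.5 CPM, and Il1b, an inflammatory cytokine, at 850.2 against 40.6 CPM. The 10 genes furthest toward the E14.5 fetal liver were Ambp, Igfbp1, Gc, Hpx, Hc, Slc27a2, Kng2, Krt8, Serpina10 and Lum. Most of them encode plasma proteins made by hepatocytes. Ambp was at 21162 CPM in fetal erythroid cells and 12.1 in the PHZ spleen, and each fetal cell held a mean of 3.03 Ambp transcripts outside the gate and 3.46 inside. In the fetal liver the counts per cell inside over outside ranged from 0.441 times for Lum to 1.14 times for Ambp over these 10 genes.

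Marker lists of other cell types measured how much of the counts in erythroid cells came from such genes. The 22 hepatocyte genes made up 12.6% of the other genes' counts in fetal erythroid cells, 0.547% in the PHZ spleen and 1.05% in the P8 bone marrow. Of these 22 genes 20 were compared, and 17 were at least 2-fold higher in the fetal liver. Only 1 hepatocyte gene was at 0 in the PHZ cells and none in the fetal cells. The 21 macrophage genes made up 3.72% in the PHZ spleen and 5.23% in the fetal liver, with 8 of 20 compared genes higher in the PHZ spleen and 5 in the fetal liver. Lymphocyte and NK genes made up 0.235% and 0.0622%, granulocyte genes 0.707% and 0.662%, endothelial genes 1.04% and 1.48%, and stromal genes 1.31% and 1.21%. Megakaryocyte genes made up 0.511% and 0.472%. Over all 7 lists, 28 of 89 genes (31.5%) were higher in the PHZ spleen and 37 of 89 (41.6%) in the fetal liver, beside 28.8% and 33.4% of all 299 genes. Cells were outlined by expanding nuclei, so an outline can cover transcripts of its neighbors. Their part in the ratios of these genes was not tested.

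**Figure D4:**
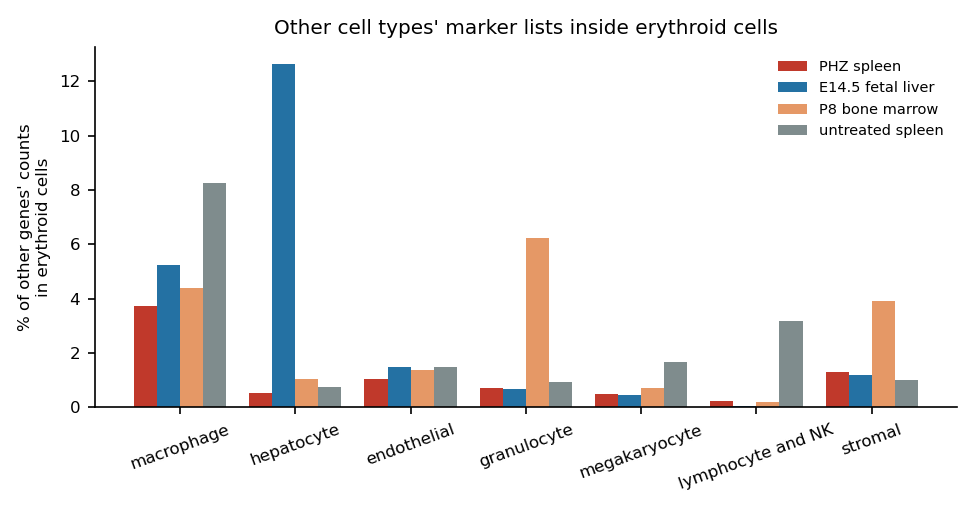
Bars give the percent of the other genes' counts in erythroid cells that belonged to each of 7 marker lists, in 4 sections. Hepatocyte genes reach 12.6% in the E14.5 fetal liver against 0.547% in the PHZ spleen, and granulocyte genes reach 6.24% in the P8 bone marrow.

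Of 34 named genes past 2-fold, 30 kept their side on all settings that gave a value. Ly6a and Il1b, which were scarcer inside the gate than outside it, were among them. Rsad2, Ctse, Isg20, Aqp1 and Cd36 also stayed at least 2-fold higher in the PHZ spleen on all 14 other settings. In cells with at most 2 counts of other cell types' lists, where 38 genes could be compared, their log2 ratios were 6.14, 4.56, 2.46, 3.43 and 1.32. With only transcripts over the nucleus they were 7.27, 4.51, 3.14, 2.39 and 2.24. Of the counts of Rsad2, 69.6% lay over the nucleus in the PHZ spleen and 65.1% in the fetal liver, and of those of Hbb-bt 54.4% and 58.4%.

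For some genes the difference also held across space within each section. In squares of 500 µm with at least 200 erythroid cells, 28 in the PHZ spleen and 44 in the E14.5 fetal liver, the Rsad2 level ran from 19052 to 29413 CPM in the PHZ spleen, with a median of 24383. In the fetal liver it ran from 55.0 to 360 CPM, with a median of 144. Ctse ran from 53927 to 79395 CPM against 1391 to 3867, and Plek2 from 9529 to 15479 against 4529 to 7658. None of these ranges overlapped. Nor did those of other named genes, among them Ly6a and Il1b, which were scarcer inside the gate, and the hepatocyte gene Ambp. Separate ranges were thus not particular to genes concentrated in erythroid cells. Ranges did overlap for Kit, Gbp2, Epsti1, Psmb8, Ccl5 and Cxcl13, although each was past 2-fold over all selected cells. Those of Gbp2 ran from 180 to 2387 CPM in the PHZ spleen against 73.9 to 943 in the fetal liver. The ranges of Klf1 also overlapped, from 16084 to 26067 CPM against 17315 to 25731, as did those of Hbb-bt. The squares come from the same sections and are not replicates.

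Erythroid cells of the PHZ spleen had larger outlines, and smaller nuclei, by the median over all selected cells. The median cell area was 51.7 µm² (51.3 to 52.2) in the PHZ spleen and 48.2 µm² (48.0 to 48.4) in the E14.5 fetal liver, a difference of 7.21%. The median nucleus area was 25.6 µm² (25.4 to 25.9) against 27.6 µm² (27.5 to 27.8), a ratio of 0.928. The nucleus filled a median of 51.9% of the outline in the PHZ spleen and 59.4% in the fetal liver. The 25th to 75th percentiles overlapped widely, with nuclei from 19.8 to 32.7 µm² and from 21.4 to 35.6 µm². The P8 bone marrow had smaller values than both, at 40.5 µm² for cells and 24.2 µm² for nuclei. In the 41 selected cells of the untreated spleen these medians were 35.0 and 22.6 µm².

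The order of nucleus areas turned in some matched selections of cells. Among cells with at least 15 gate transcripts the median nucleus was 29.8 µm² in the PHZ spleen and 29.2 µm² in the fetal liver, and among cells with 100 to 200 transcripts 26.8 and 24.5 µm². Within the classes of gate count, medians were 21.2 and 22.4 µm² at 8 to 14, 27.6 and 24.9 µm² at 15 to 24, and 36.6 and 32.9 µm² at 25 or more. Nuclei were thus larger in cells with more Slc4a1 and Hemgn in both sections, and the sections differed in how many cells each class held. Cells with 25 or more made up 1930 of 13629 in the PHZ spleen and 22719 of 61490 in the fetal liver. Area and gate count rose together in both sections and cannot be told apart here. The cell area, in contrast, was higher in the PHZ spleen under each of the 4 other selections. Transcripts per area were sparser in the PHZ spleen, at a median of 265 against 369 per 100 µm². A limit on counts therefore also selects on area, and these selections give no separate support for a difference in cell or nucleus size. Erythroid cells had 75.9 cells of any kind within 40 µm in the PHZ spleen and 95.9 in the fetal liver, and the part of this packing in the outline area was not tested.

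**Figure D5:**
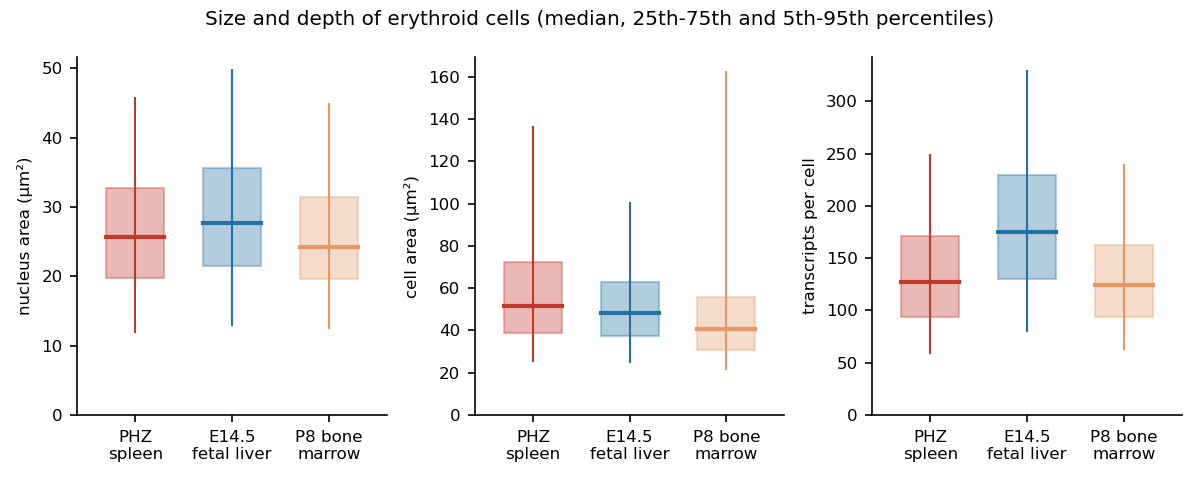
Nucleus area and cell area (µm²) and transcripts per erythroid cell in 3 sections, as the median (line), the 25th to 75th percentiles (box) and the 5th to 95th percentiles (vertical line). The PHZ spleen has median nuclei of 25.6 µm² and cells of 51.7 µm², against 27.6 and 48.2 µm² in the E14.5 fetal liver, and the boxes overlap.

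Transcripts were sparser in the PHZ spleen. The median was 265 transcripts per 100 µm² of erythroid cell outline there and 369 in the E14.5 fetal liver. Cells outside the gate showed the same order, with 191 and 342. In cells with at most 2 counts of other cell types' lists the order of transcripts per cell turned, with medians of 90 in the PHZ spleen and 76 in the fetal liver. Hepatocyte genes made up 12.6% of the other genes' counts in fetal cells and 0.547% in PHZ cells. By its own rule this limit thus keeps fetal cells with few counts.

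Neighbors were counted with the same gate, so their numbers depend on how many cells of a section the gate took, 14.4% in the PHZ spleen and 52.4% in the fetal liver, and are a description with no comparison between sections. Within 40 µm of an erythroid cell were 20.3 ± 9.82 other selected cells in the PHZ spleen and 53.5 ± 15.1 in the E14.5 fetal liver (mean ± SD over cells). In the PHZ spleen, 26.8% of the cells around an erythroid cell were selected, against 10.9% around other cells. In the fetal liver the shares were 55.8% and 51.0%.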

How the data were processed

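The deposited matrices hold raw counts for every gene in every outlined cell. Per the file headers they were made by Xenium Onboard Analysis 1.7.1.0, with cells grown out from nuclei, whereas the paper names Space Ranger. The authors also deposited cell and nucleus areas in µm², taken as given, and a list of decoded transcripts, each with a quality score. At a score of at least 20 this list gave the same counts as the matrices in the selected cells, with 0 genes that differed, and it served to count transcripts over the nucleus.

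Counts were summed over the cells of the gate and divided by the sum of the 472 other genes. Ratios have exact conditional intervals, levels exact Poisson, shares exact binomial (Clopper-Pearson) and medians order-statistic intervals, all at 95% confidence. The ratio code was tested on simulated data. Genes with at least 500 counts over both sections were compared. Those named are such genes of 8 erythroid lists, of which 2 are not reported here, the 10 with the largest ratios each way, and genes with at least 1.2 times as many counts per cell inside the gate, a rule added after seeing the data. The members, lists and settings were chosen with earlier results of these data known. Doublets were not called and neighbors' transcripts were not removed. For shares, cells were thinned to 50 counts of other genes (seed 1). Other settings tried were other totals, gates, depths and nucleus areas, nuclear transcripts, no minimum count and 3-fold. The E13.5 fetal liver and aged bone marrow sections, of another panel, were not used. Python 3.11.15 with numpy 2.4.6, scipy 1.17.1, pandas 2.3.3 and matplotlib 3.10.9 was used.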

Additional observations from a re-analysis of the deposited data

How the results depend on the processing

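With 1 section per condition no setting could be tested, and what changes below is a count or a value. The number of genes at least 2-fold higher in the PHZ spleen was 86 of 299 at first. In cells with at most 2 counts of other cell types' lists it was 10 of 38 genes compared, a similar share. With 15 to 24 and with 25 or more gate transcripts it was 47 and 44. The minimum of 500 counts was applied anew in each selection of cells, so these numbers also depend on how many genes reached it. Over the genes concentrated in the gate it was 7 of 42. Of these 7, 3 were concentrated there in the PHZ spleen only, and 4 were left where both sections had to meet the limit. The number higher in the E14.5 fetal liver, 100 at first, fell to 1 of 38 in the cells with at most 2 counts of other cell types' lists. That selection limits hepatocyte counts by its own rule and left 670 fetal cells. Over the genes concentrated in the gate in either or in both sections the number also fell to 1. The gate classes, the restriction to genes concentrated in the gate and a total without the other cell types' lists were chosen after seeing the data. On every other setting both counts stayed within 1.5 times. With counts per cell, which moved the median log2 ratio to −0.46, they were 69 and 117.

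The ratio of median cell areas, PHZ spleen over fetal liver, moved from 1.07 to 1.15 at 15 or more gate transcripts, 1.25 with no limit on C1q, 1.48 with at most 2 counts of other lists and 1.2 in cells with 100 to 200 transcripts. That of nucleus areas moved from 0.928 to 0.995 with no limit on C1q, and turned to 1.02, 1.30 and 1.09 at 15 or more gate transcripts, with at most 2 counts of other lists and with 100 to 200 transcripts. That of transcripts per cell moved from 0.726 to 0.840 at 15 or more gate transcripts and 0.853 with no limit on C1q, and turned to 1.18 with at most 2 counts of other lists. Limits on counts also select on area and depth, because transcripts per area and the share of other lists differed between the sections. These ratios therefore do not bear separately on size. The log2 ratios of Kit, Vegfa, Ndrg1, Selenbp1 and Diaph1 turned to 0.53, 0.15, 1.36, 0.42 and 0.08 there, and that of Klf1 to 0.01. Those of Car2, Rhd, Cenpf and Gata1 turned the other way, to −0.47, −0.36, −0.17 and −0.05. Cxcl10, Gsdmd, Podxl and Slc14a1 passed 2-fold toward the PHZ spleen there, at 2.59, 1.84, 1.25 and 1.2. The cause was not tested. Of 60 genes run on these settings, 34 were past 2-fold, and 30 of these kept their side on all settings that gave a value. The exceptions were Kit, Vegfa, Plek2 and Pygm. Of the 26 within 2-fold, 5 stayed within 2-fold with the same sign on every setting. No paired analysis was possible because each condition has 1 section.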
